A study of Mus musculus with 6 samples.

Results

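Small nucleolar RNAs (snoRNAs) and the non-coding genes named for hosting them were taken by gene symbol from the gene counts of liver non-parenchymal cells, as every gene whose symbol is Snora, Snord or Snhg followed by a digit. The rule found 135 of 53546 annotated genes. There were 37 Snora genes, which encode snoRNAs of the H/ACA box class, 81 Snord genes, which encode snoRNAs of the C/D box class, and 17 Snhg genes, the small nucleolar RNA host genes. The rule reads gene symbols and no measured value, but it was chosen with earlier results of these data known. Mouse snoRNAs that the annotation lists under provisional symbols fall outside the rule. One of the Snhg symbols, Snhg7os, names a transcript from the strand opposite Snhg7 and was kept because it matches.

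The cells were the non-parenchymal fraction of the liver, which holds endothelial cells, Kupffer cells and other leukocytes and stellate cells. All mice were male and received acetaminophen at 400 mg/kg into the peritoneum 6 h before the cells were taken. The 2 groups were wild type mice and SRA-/- mice, which lack scavenger receptor A, the macrophage receptor encoded by Msr1, with 3 libraries each and wild type as the reference. Both groups received the drug, untreated mice were not analysed here, and the sources used here do not give the strain, the age or the way the allele was made.

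C/D box snoRNAs carry a C box and a D box, bind fibrillarin, Nop56, Nop58 and Snu13, and guide methylation of the ribose in ribosomal RNA, while H/ACA box snoRNAs bind dyskerin, Nop10, Nhp2 and Gar1 and guide pseudouridylation. A few, such as U3 (Snord3a), U8 (Snord118) and U13 (Snord13), act in processing of the ribosomal RNA precursor. Most vertebrate snoRNAs are cut out of introns of host genes, many of which encode ribosomal proteins or translation factors, and the spliced exons of several non-coding hosts are removed by nonsense-mediated decay.

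The libraries were made from total RNA after depletion of ribosomal RNA, without selection for small RNA, so a count on a snoRNA gene can come from the mature snoRNA or from the unspliced host transcript, and the counts do not tell them apart. Totals ran from 23757203 to 44003902 counts per library. Levels are given as CPM, counts scaled to library size, after correction for RNA composition by TMM factors. A floor of 6 counts per library, or 3 fragments where both mates are counted, equals 0.131 to 0.272 CPM and covers counting error only. Of snoRNA counts from 1 to 4, 54.3% were even, so 6 counts on a snoRNA may stand for more than 3 fragments. Where 3 values stand against 3, the first are wild type replicates 1, 2 and 3 and the second SRA-/- replicates 1, 2 and 3. Genes of the mitochondrial genome took 19.8%, 9.95% and 16.1% of the counts in wild type replicates 1, 2 and 3 and 11.2%, 21.1% and 6.64% in SRA-/- replicates 1, 2 and 3, and a hepatocyte list took 3.16% to 9.50%. Defining markers of all 11 cell types examined were detected, the endothelial list summing to 2371 to 4085 CPM and the Kupffer cell list to 682 to 1815 CPM. The acinar list summed to 422 to 818 CPM in wild type and to 2.63, 304 and 2.41 CPM in SRA-/- libraries, and the neutrophil list to 42.2 to 61.8 CPM against 104 to 214 CPM. Msr1, the targeted gene, gave 38.6 to 114 CPM in wild type and 33.6 to 42.0 CPM in SRA-/- libraries, with a log2 fold change of -0.96 ± 0.33 (SE; edgeR adjusted p 0.9999), and the labels do not say which exon is disrupted.

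Sequences of 110 of the 118 snoRNAs were found by symbol among the GENCODE M21 transcripts of the mouse build GRCm38, 106 of them with the length annotated in the count files. Printed 5′ to 3′ are the C/D box snoRNAs that led the counts, Snord17 and Snord15a, with Snord104, the fourth by level, and then Snord82 and Snord87, which had the 2 highest log2 fold changes of the family. Capitals mark TGATGA within the first 20 bases, a form of the C box, and CTGA within the last 15 bases, the D box.
Snord17: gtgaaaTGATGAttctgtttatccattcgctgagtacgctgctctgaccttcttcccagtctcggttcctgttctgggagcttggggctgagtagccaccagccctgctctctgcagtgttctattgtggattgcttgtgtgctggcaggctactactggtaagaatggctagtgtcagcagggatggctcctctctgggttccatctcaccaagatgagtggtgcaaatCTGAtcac
Snord15a: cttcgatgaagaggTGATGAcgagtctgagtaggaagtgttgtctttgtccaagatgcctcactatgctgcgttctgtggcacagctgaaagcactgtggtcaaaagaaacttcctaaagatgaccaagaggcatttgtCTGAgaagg
Snord104: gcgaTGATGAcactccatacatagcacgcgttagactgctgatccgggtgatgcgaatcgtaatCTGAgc
Snord82: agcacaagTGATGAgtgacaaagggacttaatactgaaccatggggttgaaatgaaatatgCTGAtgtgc
Snord87: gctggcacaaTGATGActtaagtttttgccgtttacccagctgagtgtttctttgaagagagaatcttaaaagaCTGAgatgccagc

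For the H/ACA class, the pair highest in level, Snora78 and Snora31, are shown with Snora41, a member whose groups did not overlap. Capitals mark the ACA that stands 3 bases before the 3′ end.
Snora78: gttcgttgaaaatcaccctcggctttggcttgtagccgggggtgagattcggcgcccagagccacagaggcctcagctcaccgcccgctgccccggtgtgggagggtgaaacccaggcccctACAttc
Snora31: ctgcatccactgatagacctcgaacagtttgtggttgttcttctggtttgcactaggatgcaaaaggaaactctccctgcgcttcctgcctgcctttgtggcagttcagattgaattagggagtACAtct
Snora41: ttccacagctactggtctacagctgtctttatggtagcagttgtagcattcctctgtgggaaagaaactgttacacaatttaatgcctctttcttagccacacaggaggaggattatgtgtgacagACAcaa

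These letters followed the family names. TGATGA, searched on the RNA strand only, was present in the first 20 bases of 47 of 73 Snord sequences (64.4%) and of 0 of 37 Snora sequences. CTGA was present in the last 15 bases of 66 Snord (90.4%) and 2 Snora (5.41%) sequences. ACA stood 3 bases before the end in 31 Snora (83.8%) and 0 Snord sequences. CTGA and the terminal ACA share a base in Snora43, 1 of the 2 Snora genes with CTGA, and a sequence without the letters may hold a variant box. The Snora genes were 121 to 205 bases long with a median of 133, and the Snord genes 64 to 238 with a median of 79. Snord17 was the longest of the C/D class.

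The C/D box snoRNAs Snord32a, Snord34 and Snord35a lie in introns of Rpl13a, a ribosomal protein gene, and are printed because members of this cluster have been studied as mediators of lipotoxic stress and because their counts were low here.
Snord32a: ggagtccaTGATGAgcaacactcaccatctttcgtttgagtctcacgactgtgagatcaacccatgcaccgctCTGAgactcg
Snord34: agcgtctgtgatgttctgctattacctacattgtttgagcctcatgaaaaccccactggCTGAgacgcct
Snord35a: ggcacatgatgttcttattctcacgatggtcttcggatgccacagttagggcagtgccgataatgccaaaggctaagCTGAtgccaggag

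Of the 118 snoRNAs, 52 had 0 counts in all 6 libraries, and the annotation separated them from the rest almost completely. All 49 snoRNAs whose whole length lies inside an annotated exon of another gene had 0 counts, 20 of them Snora and 29 Snord. All 7 that lie partly inside such an exon had counts, with a median of 13 over the 6 libraries together. Of the 62 with no base inside another gene's exon, 59 had counts, and the median over all 62 was 96. The authors' counter ran with settings under which reads that overlap exons of more than 1 gene are not assigned, so a 0 for the 49 carries no statement about the snoRNA. Among the 49 are every annotated snoRNA of Gas5 that matched the rule (Snord47, Snord78 and Snord80), of Snhg12 (Snora16a, Snora44, Snora61 and Snord99) and of Snhg16 (Snord1a, Snord1b and Snord1c). They also include Snord22 in Snhg1, Snora24 in Snhg8, Snora9 in Snhg15, Snora74a in Snhg4 and Snord14a in Rps13.

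**Figure D1:**
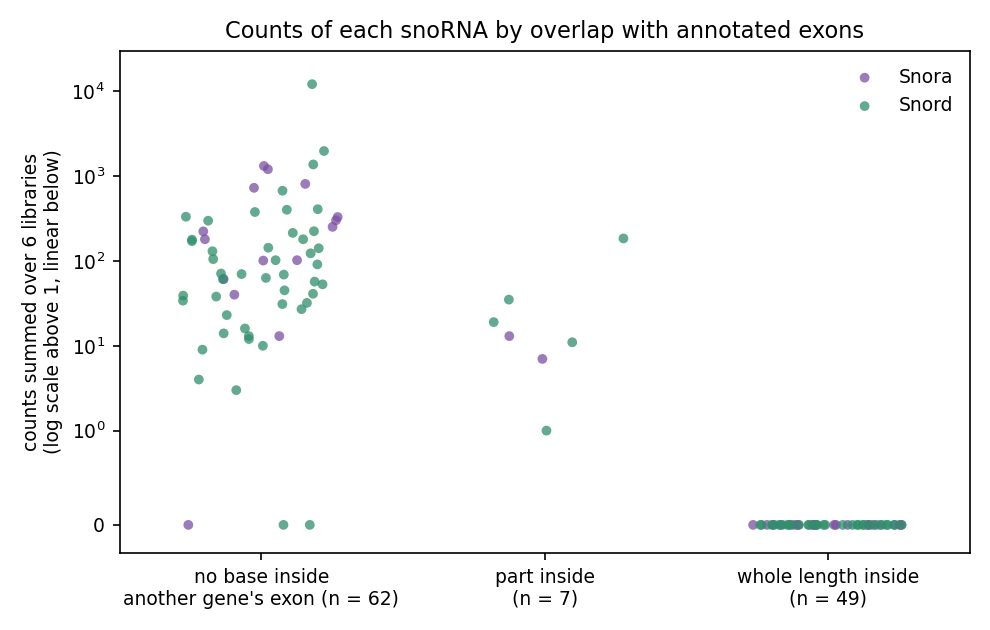
Counts of each snoRNA summed over the 6 libraries (vertical axis, logarithmic above 1 and linear below), split by how much of the gene lies inside an annotated exon of another gene, with 1 point per snoRNA. All 49 snoRNAs in the right column sit at 0, whereas 59 of 62 in the left column are above 0.

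Snora73a and Snora73b, the copies of U17, which acts in cleavage of the ribosomal RNA precursor, are examples. Both are 205 bases long, are 96.6% identical and lie in Rcc1 (chr4:132080086-132080290 and chr4:132079633-132079837, minus strand, mm39). Both also lie wholly inside exons of Gm17300 on the opposite strand, and Snora73a lies inside an Snhg3 exon as well. Counting was without strand, so any read on them was ambiguous. Of Snora73a, the sequence that received 0 counts was the following, with the ACA box in capitals.
Snora73a: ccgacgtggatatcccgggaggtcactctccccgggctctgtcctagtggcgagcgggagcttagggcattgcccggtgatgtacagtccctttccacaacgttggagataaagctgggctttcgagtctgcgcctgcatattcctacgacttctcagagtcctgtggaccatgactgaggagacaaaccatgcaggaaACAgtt

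The 3 snoRNAs with 0 counts and no overlap were Snord116l1, Snord116l2 and Snora35. Snora35 lies in an intron of Htr2c, which encodes a serotonin receptor of the brain. Both Snord116l genes lie within the span of Snhg14 on chromosome 7, the paternally expressed transcript of the Prader-Willi region, and their 94-base sequences are 100% identical, while reads that align to more than 1 place were not counted. With 0 counts in each library, levels of up to the floor given above were not detectable for Snora35. Snhg14 itself gave 839 counts over the 6 libraries.

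The filter on low counts left 55 of the 135 genes for testing: 12 of 37 Snora, 28 of 81 Snord and 15 of 17 Snhg. The 80 untested genes were the 52 at 0 and 28 with few counts. The latter were 4 Snora genes with 7 to 40 counts over all libraries, 22 Snord genes with 1 to 57, and Snhg3 and Snhg9 with 1 and 33. Snhg3 has 86.3% of its exonic length inside exons of other genes. The 3 Rpl13a intron snoRNAs were among the untested, with 57 counts for Snord35a, 38 for Snord32a and 23 for Snord34. Rpl13a itself had 7.99 ± 2.43 CPM in wild type and 7.12 ± 1.49 CPM in SRA-/- libraries (SD, n = 3 each). The U3 copies in the span of Tex14 were also untested, with 34, 14, 12 and 4 counts for Snord3b1, Snord3b3, Snord3b4 and Snord3b2, and near-identical copies of U3 can share reads, so these and Snord3a are uncertain.

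No Snora, Snord or Snhg gene passed the test between SRA-/- and wild type cells. By edgeR 0 of the 55 tested members passed an adjusted p of 0.05, where 10 of 20541 tested genes did (0.0487%; 0.0341% higher and 0.0146% lower). DESeq2 also called 0 members, against 59 of 28344 genes (0.208%), and limma-voom with quality weights 0, against 75 (0.365%). Before adjustment 1 member, Snhg17, was under 0.05 by edgeR, which is 1.82% of the tested members against 3.22% of all tested genes. DESeq2 had 0 members under 0.05 before adjustment, against 655 of all 20541 tested genes. By limma-voom 1 member, Snora41, was under 0.05, against 2392 of all tested genes. The lowest edgeR adjusted p of any member was 0.9999. Groups did not overlap for 3 members, Snhg17, Snora41 and Snord87 (5.45%, against 7.3% of all tested genes), and each of the 3 was higher in SRA-/- libraries, as were 3.97% of all tested genes. These are counts of bulk RNA, in which a different number of cells of a type and a different amount of RNA per cell cannot be told apart.

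The medians of Snora and Snord genes lay near 0 and that of Snhg genes was higher, with different precision. The median log2 fold change of the 12 Snora genes was 0.00, with 6 above and 6 below 0 and a range of -0.57 to 0.94. That of the 28 Snord genes was 0.02, with 15 above and 13 below 0 and a range of -0.75 to 1.07. For the 15 Snhg genes it was 0.28, or 0.18 by limma-voom, with 9 above and 6 below 0 and a range of -0.45 to 0.49. Leaving out wild type replicate 1 moved the Snora median to 0.37. Over all tested genes the median was -0.01, with 48.3% above 0. The median SE was 0.44 for Snora, 0.46 for Snord and 0.25 for Snhg genes, beside median levels of 1.47, 0.926 and 4.79 CPM and 5.76 CPM for all tested genes. A 2-fold change is 1 log2 unit, so for the typical snoRNA an interval of 2 SE on either side reaches close to a 2-fold change.

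**Figure D2:**
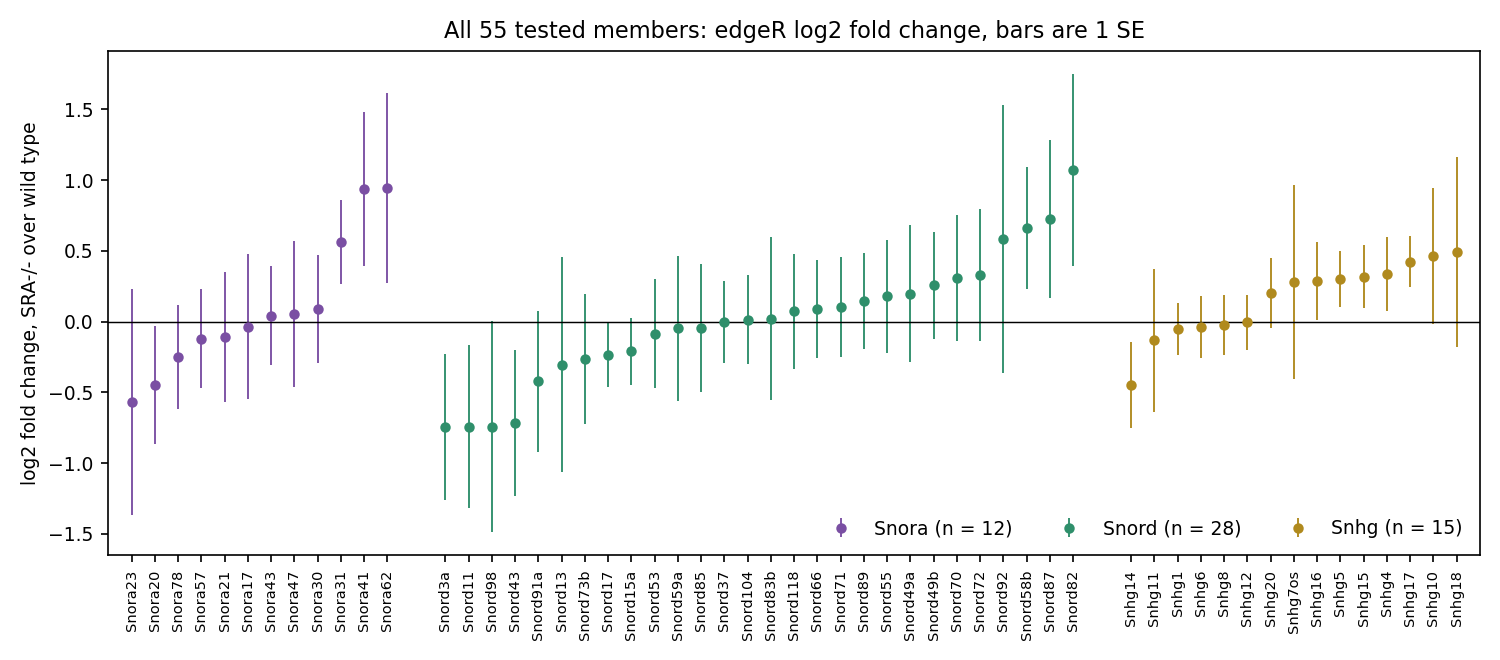
Log2 fold change, SRA-/- over wild type, of all 55 tested members (vertical axis), ordered within each family along the horizontal axis, with bars of 1 SE from edgeR. Snora values span -0.57 to 0.94, Snord values -0.75 to 1.07 and Snhg values -0.45 to 0.49, and the bars are widest among the snoRNAs.

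Among C/D box snoRNAs that act in precursor processing, U3 was the most abundant. Snord3a (chr10:40134463-40134675, plus strand), which has no host gene, had 15.7, 6.76 and 5.57 CPM in wild type replicates 1, 2 and 3 and 4.35, 9.79 and 2.5 CPM in SRA-/- replicates 1, 2 and 3. The groups overlapped, with wild type replicate 1 and SRA-/- replicate 2 the highest of each. The log2 fold change was -0.75 ± 0.52 (SE). It was -0.14 without wild type replicate 1 and -1.43 without SRA-/- replicate 2. Snord118, U8, required for maturation of the large-subunit RNAs, had 2.20, 0.873 and 1.51 CPM against 1.57, 2.10 and 1.14 CPM, a log2 fold change of 0.07 ± 0.41. Snord13, U13, had 1.20, 0.418 and 0.237 CPM against 0.305, 1.0 and 0.182 CPM, with a log2 fold change of -0.30 ± 0.76. In all 3 the highest library of each genotype was again wild type replicate 1 and SRA-/- replicate 2, and the groups overlapped.

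Among C/D box snoRNAs hosted in introns, Snord17 dominated the counts. It took 58.2% of all Snord counts, at least 48.8% (SRA-/- replicate 3) and at most 65.1% (wild type replicate 3). Snord17 (chr2:144107899-144108136, minus strand, in an intron of Snx5, a sorting nexin gene) had 61.6, 60.0 and 82.6 CPM against 67.8, 64.2 and 41.6 CPM. The groups overlapped, and the log2 fold change was -0.23 ± 0.23. Snord15a (chr7:99131992-99132139, minus strand, in an intron of the ribosomal protein gene Rps3) had 9.35, 9.23 and 15.1 CPM against 9.77, 9.29 and 10.1 CPM, a log2 fold change of -0.21 ± 0.23. In wild type replicate 3 both were at their highest. The related copy Snord15b, 64.2% identical, lies inside an Rps3 exon and had 0 counts.

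Levels of the next Snord genes were several times lower. Snord104 (chr11:106391819-106391888, plus strand), without a host gene, had 3.33, 4.59 and 2.58 CPM against 4.66, 3.01 and 2.86 CPM, a log2 fold change of 0.01 ± 0.32. Snord55 had 2.06 ± 0.97 CPM against 2.34 ± 0.41 CPM (SD, n = 3 each). Snord37, in the elongation factor gene Eef2, had 2.14 ± 0.43 against 2.13 ± 0.21 CPM. All 3 overlapped between the groups.

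Snord82, in an intron of the nucleolin gene Ncl, had the highest log2 fold change of any member. Counts of 3, 13 and 11 in the wild type libraries stood beside 37, 7 and 20 in the SRA-/- libraries, or 0.103, 0.494 and 0.326 CPM against 0.805, 0.234 and 0.908 CPM. The groups overlapped through SRA-/- replicate 2, and the log2 fold change was 1.07 ± 0.68. It was 0.60 by limma-voom, 0.67 on leaving out wild type replicate 1 and 1.55 on leaving out wild type replicate 2. Snord87, in an intron of Snhg6, had 8, 10 and 4 counts against 19, 12 and 10. On the CPM scale the groups did not overlap, at 0.118 to 0.380 against 0.401 to 0.454 CPM, with a log2 fold change of 0.73 ± 0.56. Snord43, in the ribosomal protein gene Rpl3, had 18, 16 and 27 counts against 29, 11 and 4, a log2 fold change of -0.72 ± 0.51. Snord58b, in Rpl17, had 0.889 ± 0.052 CPM against 1.42 ± 0.67 CPM (SD, n = 3 each), with SRA-/- replicate 2 below all wild type libraries.

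**Figure D3:**
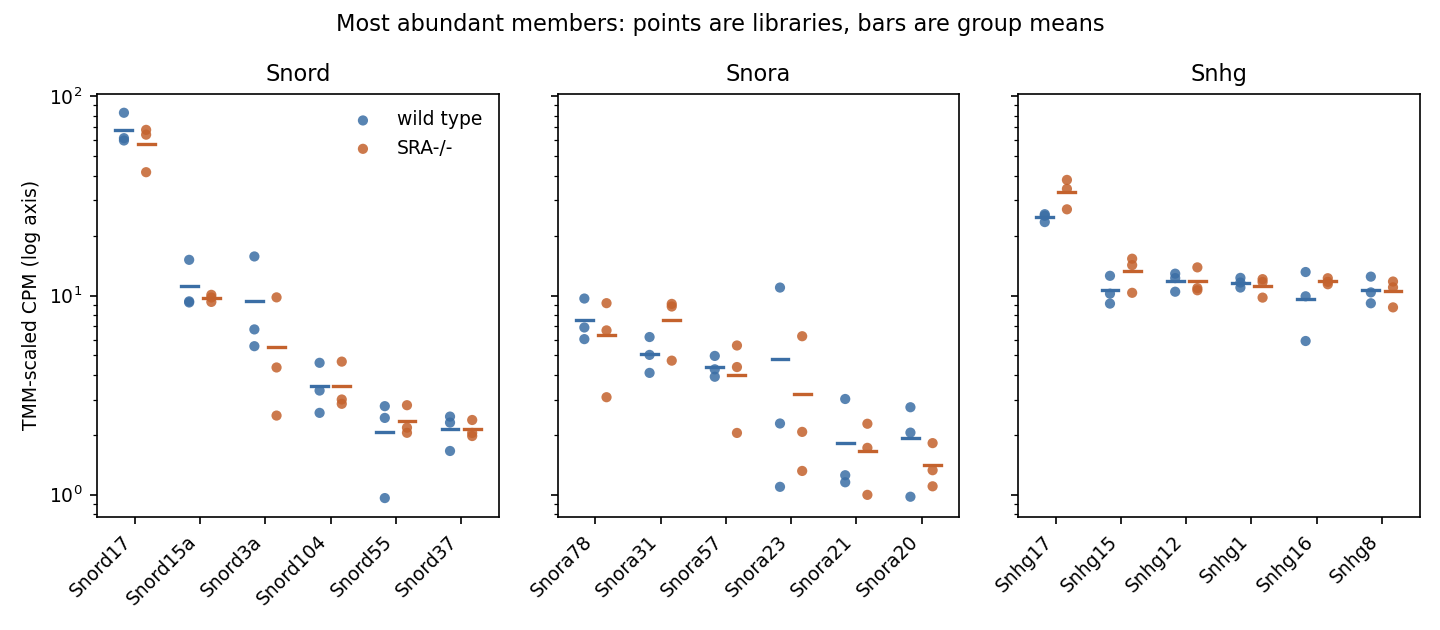
TMM-scaled CPM (logarithmic axis) of the 6 most abundant members of each family, with 1 point per library and a bar at each group's mean. Snord17 at 41.6 to 82.6 CPM lies far above the other Snord genes, and Snhg17 at 23.4 to 38.0 CPM leads the Snhg genes.

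The H/ACA box snoRNAs had no single leader. Snora78 (chr17:24938650-24938777, minus strand, in the span of Snhg9) took 23.2% of Snora counts, with 9.66, 6.91 and 6.04 CPM against 6.68, 9.15 and 3.09 CPM. The groups overlapped, and the log2 fold change was -0.25 ± 0.37. Snora31 (chr14:76085345-76085474, plus strand, in an intron of Tpt1, the translationally controlled tumour protein gene) took 21.2%. Its counts were 119, 163 and 170 against 417, 141 and 194, or 4.09, 6.19 and 5.03 CPM against 9.08, 4.71 and 8.81 CPM. SRA-/- replicate 2 lay within the wild type range. The log2 fold change was 0.56 ± 0.30, with an adjusted p of 0.9999 by edgeR.

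Snora57, with no host by the rule used, had 4.38 ± 0.54 CPM in wild type and 4.01 ± 1.81 CPM in SRA-/- libraries (SD, n = 3 each). Snora23, in an intron of the nuclear import receptor gene Ipo7, varied most among the abundant ones. It had 11, 2.28 and 1.10 CPM against 2.07, 6.25 and 1.32 CPM, and its log2 fold change of -0.57 ± 0.80 rested on wild type replicate 1. Without that library it was 0.95. Snora21, in Rpl23, and Snora20, in the chaperonin gene Tcp1, had log2 fold changes of -0.11 ± 0.46 and -0.45 ± 0.42.

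The 2 highest log2 fold changes of the family belonged to members with few counts. Snora41, in an intron of Eef1b2, which encodes a subunit of elongation factor 1, had 15, 11 and 5 counts against 40, 16 and 14. On the CPM scale these were 0.515, 0.418 and 0.148 against 0.871, 0.534 and 0.635, so that the lowest SRA-/- library stood just above the highest wild type one. The log2 fold change was 0.94 ± 0.54, and 0.55 without wild type replicate 3. Snora62, in the ribosomal protein gene Rpsa, had 2, 12 and 5 counts against 20, 14 and 8, and 0.94 ± 0.67. Its groups overlapped, and the log2 fold change was 0.24 by limma-voom, 0.53 without wild type replicate 1 and 1.91 without wild type replicate 2.

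The Snhg genes were counted at higher levels, and their exons can be read apart from the snoRNAs they host except where the annotations overlap. Of the 17 Snhg genes, 14 lie partly inside exons of other genes, and reads that overlap both were not counted, so their levels leave out that part. Snhg17 (chr2:158195620-158203500, minus strand) was the most abundant, with 23.9% of the family's counts. Its counts were 680, 674 and 849 against 1244, 1027 and 838, which is 23.4, 25.6 and 25.1 CPM against 27.1, 34.3 and 38.0 CPM. The groups did not overlap, and the log2 fold change was 0.42 ± 0.18. Its adjusted p was 0.9999 by edgeR, after 0.0412 before adjustment over all genes, where DESeq2 had 0.0605 and limma-voom 0.0593. With 1 library left out the log2 fold change ran from 0.31 to 0.55. The neutrophil list, at 42.2 to 61.8 CPM against 104 to 214 CPM, and the B cell list, at 22.6 to 26.0 CPM against 37.4 to 56.7 CPM, were also apart between the groups. The acinar list was apart in the other direction, at 422 to 818 CPM against 2.41 to 304 CPM. The part of these lists in the Snhg17 value was not tested.

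The most abundant Snhg genes after Snhg17 lay nearer to 0. Snhg15 had 9.11, 10.2 and 12.6 CPM against 10.3, 15.3 and 14.2 CPM, a log2 fold change of 0.32 ± 0.22. Snhg16 had 5.91, 9.91 and 13.1 CPM against 11.7, 11.4 and 12.2 CPM, with 0.29 ± 0.28, and wild type replicate 1 was below the other 5 libraries. The log2 fold changes of Snhg1, Snhg8 and Snhg12 were -0.05 ± 0.18, -0.02 ± 0.21 and -0.01 ± 0.20. Snhg12, for example, had 11.8 ± 1.26 CPM in wild type and 11.8 ± 1.79 CPM in SRA-/- libraries (SD, n = 3 each).

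Of the less abundant host genes, Snhg5 had 8.04, 8.43 and 9.12 CPM against 10.4, 9.09 and 12.1 CPM. The ranges touched, SRA-/- replicate 2 lying below wild type replicate 3, and the log2 fold change was 0.30 ± 0.20. Snhg4 had 3.62 ± 0.55 against 4.59 ± 0.97 CPM (SD, n = 3 each). Snhg14 had the lowest log2 fold change of the family, -0.45 ± 0.30, with 7.35, 5.05 and 3.64 CPM against 3.20, 4.07 and 4.54 CPM. It runs opposite Ube3a, and reads were counted without strand. Gas5, a classical host gene outside the naming rule, had 67.2 ± 3.59 CPM against 64.4 ± 11.7 CPM and a log2 fold change of -0.06 ± 0.18.

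The level summed over each family gave small differences, and no p is given for such sums. Snora genes summed to 40.7, 27.7 and 23.2 CPM in wild type and to 31.4, 35.0 and 22.2 CPM in SRA-/- libraries, a ratio of means of 0.968. Snord genes summed to 116, 106 and 127 CPM against 114, 109 and 85.2 CPM, a ratio of 0.881, and without Snord17 the ratio was 0.926. In both families the groups overlapped. Snhg genes summed to 106, 111 and 118 CPM against 119, 126 and 134 CPM, a ratio of 1.13 with no overlap between the groups. When scaled to library totals alone the groups overlapped, at 94.8, 116 and 128 CPM against 125, 127 and 125 CPM, and they also overlapped without Snhg17, where the ratio was 1.07.

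**Figure D4:**
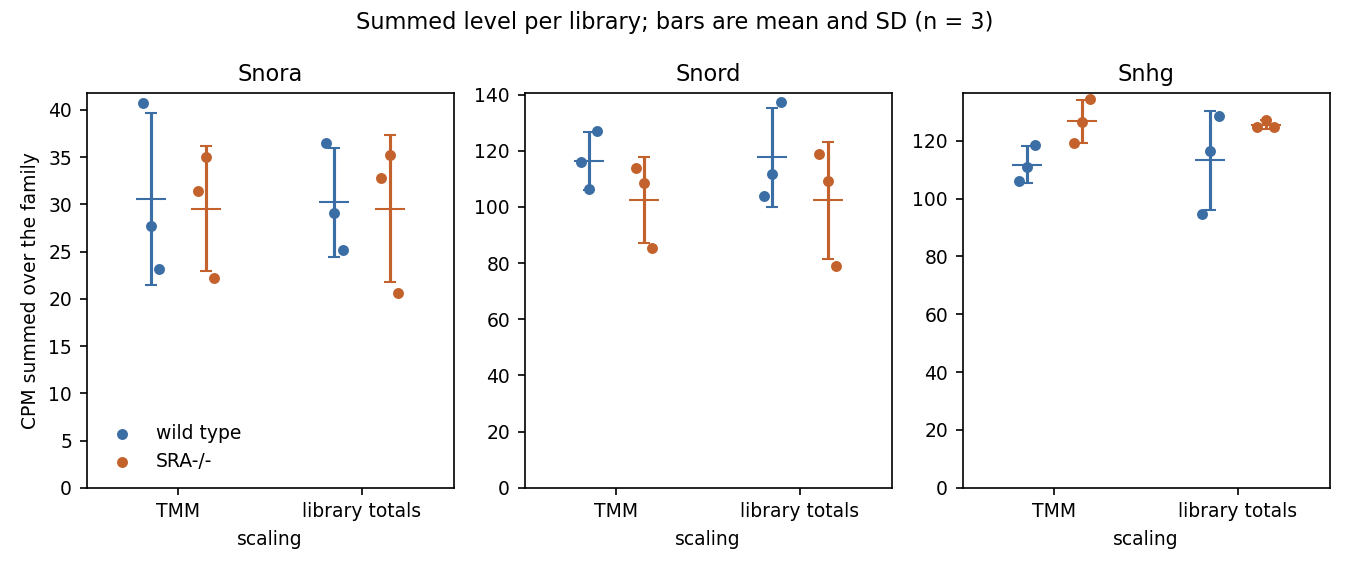
CPM summed over each family per library (points), with mean and SD per group (n = 3), under TMM scaling and under scaling to library totals. The Snhg groups are apart under TMM, at 106 to 118 against 119 to 134 CPM, and overlap under library totals, while the Snora and Snord groups overlap under both.

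Libraries of 1 genotype differed among themselves in which snoRNAs were high. Snora23, Snord3a and Snord13, picked after their values were seen, were highest in wild type replicate 1 and next in SRA-/- replicate 2. Those 2 libraries also had the largest shares of mitochondrial counts, 19.8% and 21.1%. For Snora23 these 2 stood at 11 and 6.25 CPM and the other 4 at 1.10 to 2.28 CPM. The part of the mitochondrial share in this order was not tested. By family, wild type replicate 1 was the highest library for 5 of 12 tested Snora genes and wild type replicate 3 the lowest for 5. SRA-/- replicates 1 and 2 were each the highest for 3 of the 12 and the lowest for 0, and wild type replicate 1 was the lowest for 2. The median log2 deviation of Snora genes from their means was highest in SRA-/- replicate 2 (0.40), then in wild type replicate 1 (0.20). For Snord genes SRA-/- replicate 3 was the highest library in 8 of 28 and wild type replicate 1 in 7. SRA-/- replicate 2 was the highest in 1 of 28 and the lowest in 9, as was wild type replicate 3 in 9. The order of the 3 picked snoRNAs was thus not that of the Snord genes. Of the Snhg genes 7 of 15 were lowest in wild type replicate 1. As a share of all counts, snoRNAs took 0.00997% in SRA-/- replicate 3 and 0.0140% to 0.0163% in the other 5 libraries.

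Host genes were assigned by position on the same strand. Of the 118 snoRNAs, 110 lay within the span of another gene, with 79 distinct hosts. Ribosomal protein genes hosted 31 of them in 23 genes, and Snhg genes hosted 16 in 10 genes. The 8 without a host were Snora17, Snora43, Snora57, Snord3a, Snord3b-ps1, Snord13, Snord104 and Snord118. Both members were tested in 32 pairs with 28 hosts, and 0 of these hosts were called by edgeR.

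In each of these pairs the snoRNA and its host differed by less than 2 SE. The snoRNA had the higher log2 fold change in 19 of 32 pairs, both had the same sign in 21, and the median difference was 0.07. The difference ran from -0.81 for Snord43 against Rpl3 to 1.14 for Snord82 against Ncl, with the SE taken without covariance. Tpt1, the host of Snora31, had 53.7, 89.5 and 107 CPM against 111, 66.7 and 84.3 CPM, a log2 fold change of 0.07 ± 0.28 beside 0.56 ± 0.30 for the snoRNA. Eef1b2, the host of Snora41, had -0.16 ± 0.28 beside 0.94 ± 0.54. Ncl had -0.07 ± 0.31 beside 1.07 ± 0.68 for Snord82. Host log2 fold changes ran from -0.55 to 0.33.

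**Figure D5:**
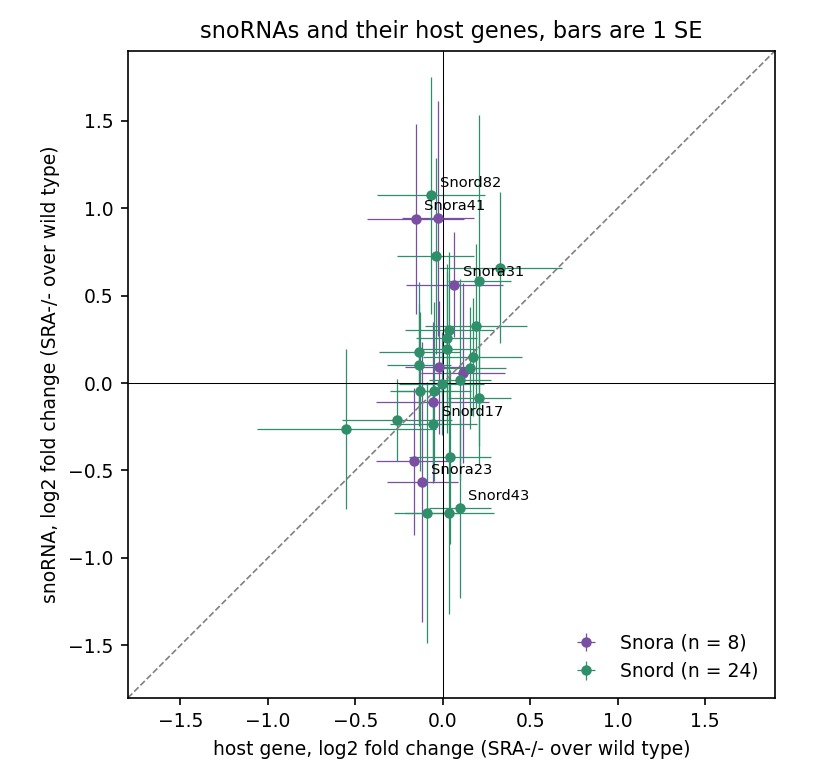
Log2 fold change, SRA-/- over wild type, of each host gene (horizontal axis) and of the snoRNA within it (vertical axis) for the 32 pairs in which both were tested, with bars of 1 SE on both axes. The hosts lie between -0.55 and 0.33 and the snoRNAs spread more widely, with Snord82 highest at 1.07.

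Per length, most snoRNAs of the 32 tested pairs did not have higher counts than their hosts. On the scale of CPM per kilobase of annotated exon, the snoRNA was above its host in 11 of the 32 pairs, and the median ratio of levels was 0.806. Of the 32 pairs, Snord17 was the highest, at 265 CPM per kilobase against 15.1 for Snx5, a 17.5-fold ratio. Snord59a was the lowest of the 32 relative to its host Atp5b, at a ratio of 0.072. Outside these pairs, Snora78 stood at 54.1 CPM per kilobase against 0.863 for Snhg9, a ratio of 62.7. Snhg9 had too few counts to be tested. Snord15a stood at 70.7 CPM per kilobase against 44.9 for Rps3, and Snord37 at 33.4 against 436 for Eef2. Among the 62 snoRNAs clear of other exons, length and mean CPM had a Spearman correlation of 0.07 across genes, which share libraries and depth. Median levels there were 1.18 CPM for the 15 Snora and 0.353 CPM for the 47 Snord genes. A read counts if any part of it lies on the gene, which raises the value per kilobase of short genes. The libraries were not selected for small RNA, and how fully they captured the mature snoRNAs was not tested.

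No gene for the proteins that assemble and process snoRNAs passed the test. Over 8 lists of snoRNP proteins, assembly factors, end-processing enzymes, decay factors, ribosomal RNA factors, nuclear-retained RNAs and other small RNAs, 0 of the tested genes were called by edgeR (0.0487% of all tested genes) and 0 had an unadjusted p under 0.05 (3.22% of all tested genes). All 4 C/D box proteins were tested, with a median log2 fold change of 0.03. The most abundant, Nop58, had 77.2 ± 25.8 CPM in wild type and 79.3 ± 11.6 CPM in SRA-/- libraries (SD, n = 3 each), with Nop56 at a log2 fold change of 0.11 ± 0.19 and Snu13 at -0.22 ± 0.19. The 4 H/ACA box proteins had a median of 0.09, with Dkc1, which encodes the pseudouridine synthase dyskerin, at 0.10 ± 0.20 and Nhp2 at 0.21 ± 0.31. The 13 assembly factors had a median of -0.07, and among them were Nolc1 at 0.12 ± 0.22, Phax, the export adaptor of capped small RNAs, at -0.22 ± 0.21 and Naf1 at 0.23 ± 0.23.

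Of 18 tested genes for trimming of 3′ ends, the median was 0.02, with the nuclear exonuclease gene Xrn2 at 0.04 ± 0.19, Dis3 at 0.20 ± 0.20 and Exosc8 at 0.22 ± 0.23. The 10 nonsense-mediated decay factors had a median of -0.02. Smg1, the kinase of the pathway, had -0.08 ± 0.27, Smg9 0.11 ± 0.17 and the endonuclease Smg6 -0.23 ± 0.16, with 72.0, 68.6 and 70.6 CPM against 58.9, 54.3 and 66.8 CPM, which did not overlap. Of all tested genes 3.33% were lower in SRA-/- libraries without overlap. Genes for ribosomal RNA transcription and early processing, 35 tested, had a median of 0.06 with 23 above 0. Among them Utp4, a component of the small-subunit processome, had 24.5, 25.3 and 32.5 CPM against 36.8, 32.2 and 37.3 CPM, with overlapping groups and a log2 fold change of 0.37 ± 0.18, and Taf1a had 0.36 ± 0.21. Taf1b had -0.23 ± 0.22 and, as with Smg6, was lower in SRA-/- libraries without overlap.

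Other RNAs that stay in the nucleus or fold into small particles were given by 2 lists, again with 0 genes called. The 10 tested nuclear-retained RNAs had a median of -0.16, with Neat1 at 19402 ± 6150 CPM in wild type and 20569 ± 8486 CPM in SRA-/- libraries (SD, n = 3 each). Meg3 had -0.81 ± 0.51 and Rian, an imprinted transcript that hosts C/D box snoRNAs, -0.65 ± 0.48, both being highest in wild type replicate 2. The 8 other small RNAs had a median of 0.04. Rmrp, the RNA of the RNase MRP that cleaves precursor ribosomal RNA, had 580, 452 and 339 CPM against 481, 558 and 258 CPM, and Rny3 and Rnu12 had log2 fold changes of -0.85 ± 0.72 and -0.89 ± 0.81.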

How the data were processed

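Per the labels' protocols, total RNA of liver non-parenchymal cells was depleted of ribosomal RNA and sequenced, for 3 wild type and 3 SRA-/- mice. Groups and replicate numbers come from the sample titles, which call the replicates biological. The authors ran featureCounts 2.0.2 per the file headers, counting reads without strand in exons of GENCODE vM26 and summing by gene symbol, and the submitters' processing notes name STAR and genome build mm39. The deposited values are these raw counts. Trimming is not given in the sources used here. Mates were mostly counted separately: of gene counts from 1 to 4, 70.5% were even, against 54.3% for snoRNAs. Reads that aligned to several places or overlapped exons of several genes were not counted.

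The tests used edgeR 4.0.16 under R 4.3.3: filterByExpr, which kept 20541 genes, TMM factors of 0.896 to 1.08, and a robust quasi-likelihood test on group alone, with Benjamini-Hochberg adjustment over all tested genes and a threshold of 0.05. An SE is the absolute log2 fold change over the square root of F. The common biological coefficient of variation came to 0.282. With 3 libraries a group, an exact permutation test of a single value cannot give a p below 0.1. The procedure was tested on simulated data. Exon overlap was computed from the coordinates in the count files (mm39). A host was the gene on the same strand whose span holds the whole snoRNA, Snora, Snord, Scarna and Mir genes excepted. Genes with Gm, Rik or clone names were passed over where a named gene also qualified. Where several remained, the one with the highest mean count was taken. Sequences were copied from GENCODE M21 transcripts (GRCm38). No coordinates of that build are given.

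The members and gene lists were chosen with earlier results of these data known. In each family the text names the 6 genes with the highest mean CPM, the 5 with the smallest unadjusted p, members without overlap at 1 CPM or more, the snoRNAs of Rpl13a, Snora73, Snora74a, Snord13, Snord14, Snord17, Snord118 and the imprinted clusters. Of each list it names the most abundant gene and the 2 with the smallest p. The host of 1 named snoRNA is not reported here. Snord87 and Snora41 are below 1 CPM. Alternatives were DESeq2 size factors, library totals, removal of mitochondrial and hepatocyte genes, DESeq2 1.42.0, limma-voom (limma 3.58.1) with quality weights, no filter, a filter of 1 CPM in 3 libraries, counts divided by 2, the replicate number as a block, and each library left out. Chosen after seeing the data were the removal of wild type replicate 1 and SRA-/- replicate 2 together and sums without Snord17 or Snhg17.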

Additional observations from a re-analysis of the deposited data

How the results depend on the processing

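No member was called by any of 16 alternative fits, in which the lowest adjusted p of a named member was 0.413. Over all genes the count called was 59 by DESeq2, 75 by limma-voom, 32 with no filter on low counts, 3 to 40 with 1 library left out (40 on leaving out SRA-/- replicate 2) and 101 when wild type replicate 1 and SRA-/- replicate 2 were both left out, a pair chosen after seeing the data. The median log2 fold change of Snora genes ran from -0.16 to 0.37 with 1 library left out, the highest without wild type replicate 1. That of Snhg genes was 0.18 by limma-voom, 0.13 to 0.30 with 1 library left out and 0.11 without both libraries. Deviations from group means had correlations of -0.29, -0.14 and -0.13 between same-numbered libraries. Between differently numbered libraries they ran from -0.09 to 0.26. Such deviations offset each other within a group, so these values cannot decide whether the replicate numbers pair the libraries. With the replicate number as a block 5 genes and 0 members were called, and Snord37 had a log2 fold change of 0.0043.

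Signs turned for 14 named members, abundant ones such as Snora78, Snora23 and Snord15a among them. With 1 library left out, log2 fold changes ran from -0.14 to 0.061 for Snhg12, -0.16 to 0.11 for Snord37, -0.11 to 0.11 for Snhg8, -0.39 to 0.49 for Snora21, -0.25 to 0.25 for Snord104, -0.33 to 0.064 for Snord15a and -0.16 to 0.46 for Snord55. They ran from -1.48 to 0.95 for Snora23, -1.28 to 0.63 for Snord13, -0.20 to 0.43 for Snord118, -0.11 to 0.032 for Snhg1, -0.43 to 0.18 for Snora57 and -0.61 to 0.068 for Snora78. By limma-voom Snhg8 was at 0.052, Snora21 at 0.27, Snord104 at -0.15, Snord15a at 0.0019 and Snord55 at -0.047. Without mitochondrial and hepatocyte genes Snhg12 was at 0.0014 and Snord37 at 0.0017, and with counts divided by 2 Snord37 was at 0.0096. Without both libraries Snhg8 was at 0.0036, Snora20 at 0.054, Snora21 at 0.21, Snora23 at 0.045, Snord37 at 0.12 and Snord55 at -0.11. Without a turn of sign, log2 fold changes with 1 library left out ran from -0.37 to -0.047 for Snord17, -1.26 to -0.42 for Snord43, 0.32 to 0.98 for Snord58b, 0.36 to 1.10 for Snord87, -0.66 to -0.14 for Snhg14 and 0.038 to 0.57 for Snhg16. The cause was not tested. The depth limits the 28 members with few counts, which were not tested.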

Other observations

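Small RNAs outside the naming rule also differed between libraries of 1 genotype. Scarna2, a small RNA of Cajal bodies, where spliceosomal RNAs are modified, had 402, 677 and 932 CPM in wild type replicates 1, 2 and 3 and 689, 397 and 667 CPM in SRA-/- replicates 1, 2 and 3. It was lowest in wild type replicate 1 and SRA-/- replicate 2, the libraries in which Snora23 and Snord3a were highest, and its log2 fold change was -0.20. Rnu12, the U12 RNA of the minor spliceosome, was at 4.64 and 2.61 CPM in these 2 libraries and at 0.318 to 1.18 CPM in the other 4. Terc, the H/ACA box RNA of telomerase, had 7.66, 4.78 and 3.26 CPM against 5.70, 6.78 and 4.31 CPM, again with wild type replicate 1 and SRA-/- replicate 2 the highest of each genotype. Scarna6 did not follow this order, with 73.3, 50.2 and 43.3 CPM against 44.4, 43.4 and 38.9 CPM. In SRA-/- libraries it was highest in replicate 1, and its log2 fold change was -0.40 ± 0.21 (SE). The RNAs of this paragraph were named with their values known. The non-coding host genes Zfas1 and Dancr, which lack an Snhg symbol, had log2 fold changes of -0.21 and 0.07.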
